A study of Homo sapiens with 44 samples.

Results

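The mesenchymal state genes of neuroblastoma, 10 in number, were followed through RNA-seq and m6A RNA immunoprecipitation (meRIP) of cells treated with STM2457, an inhibitor of the m6A methyltransferase METTL3. The 10 genes, of 19923 listed, were taken by symbol: the transcription factors PRRX1, TWIST1, SNAI2, FOSL2 and RUNX1, the Hippo pathway coactivators YAP1 and WWTR1 (TAZ), and the cytoskeletal, matrix and surface genes VIM, FN1 and CD44. Kelly and NGP are human neuroblastoma cell lines with MYCN amplification, wild-type in the labels. Kelly cells received 8 µM STM2457 or DMSO for 1 day or for 6 days, and NGP cells received the same for 6 days. Kelly cells were also grown under the skin of male and female nude mice, which lack T cells but keep fibroblasts, vessels and innate immune cells, and the mice received 50 mg/kg STM2457 or vehicle by daily intraperitoneal injection for 14 days. Each group held 3 libraries, or 2 in the xenograft, of poly(A) RNA before immunoprecipitation (input) and the same number after pull-down with an m6A antibody (RIP), 44 libraries in all. Library depth, as reads counted to genes, ranged from 2.14 to 36.5 M reads per library. The labels do not say whether replicates came from separate cultures or animals, so p-values measure the spread between these libraries, which may be technical.

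Neuroblastoma cells can hold an adrenergic identity, kept by factors such as HAND2 and GATA3, or a mesenchymal one, in which PRRX1, AP-1 factors such as FOSL2, RUNX1 and YAP/TAZ are active and intermediate filament, matrix and adhesion genes are high. METTL3 writes m6A co-transcriptionally, mostly at the core sequence GGACT and its relatives in long internal exons, around stop codons and in 3′ untranslated regions (UTRs), and the mark is known to shorten the life of many mRNAs. The name of the set stands for what the genes are known for, not for the state of these cells. The 16 adrenergic markers summed to between 6213 and 10274 CPM (read counts scaled to a common library total) in the inputs of all 4 experiments, with none at 0 in any group. The sum hides differences between the lines. TH and DBH had means of 0.870 and 117 CPM in NGP DMSO inputs, against 960 and 1604 CPM in Kelly DMSO inputs at 6 days. HAND2 and GATA3 had 2715 and 319 CPM in NGP, against 2404 and 214 CPM in Kelly. PRRX1, a defining factor of the mesenchymal state, was near the lower limit in Kelly, with 0.604 ± 0.189 CPM (SD, n = 3) in DMSO inputs at 1 day and 0.433 ± 0.474 CPM (SD, n = 3) at 6 days.

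The GGACT windows of the 4 genes with the most RIP and input reads are shown because those genes were called in opposite directions in the m6A pull-down of Kelly DMSO cells. Each window has 30 bases in the direction of the transcript, read from GRCh38 through GENCODE 44 transcripts, with GGACT in capitals, and is the match nearest to the stop codon unless stated.
TWIST1 coding: gagcgacgagctGGACTccaagatggcaag
TWIST1 3′ UTR: aggcatcactatGGACTttctctattttaa
FOSL2 3′ UTR: gggacccaggtgGGACTtagcagtgagtat
VIM coding: gcaggactcggtGGACTtctcgctggccga
FN1 coding: ccacacggtccgGGACTcaatccaaatgcc
The TWIST1 windows lie on the minus strand at chr7:19116801-19116830, in exon 1 of 2 at codon 168, 104 bases before the stop, and at chr7:19115754-19115783 in exon 2, 404 bases past the stop. The FOSL2 window lies on the plus strand at chr2:28412582-28412611 in exon 4 of 4, 147 bases past the stop. The VIM window is at chr10:17229662-17229691, plus strand, exon 2 of 10, and 1148 bases before the stop. The FN1 window is at chr2:215372023-215372052, minus strand, exon 40 of 46, and 850 bases before the stop. All 7 GGACT matches of FOSL2 were in its 3′ UTR, whereas both matches of VIM and all 7 of FN1 were in coding sequence. Counted on the strand of the transcript, 88.4% of 14582 transcripts held at least 1 GGACT, so a match by itself separates few genes. Per kilobase, TWIST1 held 1.23, FOSL2 1.04, VIM 0.929 and FN1 0.834 matches, against a median of 0.917 over those transcripts. The last exon of FOSL2 has 5388 bases, longer than the longest exon of 92.7% of transcripts, while the longest exons of TWIST1 (966 bases), FN1 (762 bases) and VIM (710 bases) are below the median of 1510 bases.

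Compared on a scale that corrects for exon length (FPKM, fragments per kilobase and library total), TWIST1 was the most abundant of the 10 genes in the DMSO inputs of every experiment. TWIST1, a basic helix-loop-helix factor that also partners MYCN in MYCN-amplified neuroblastoma, reached 29.4 ± 4.89 FPKM (SD, n = 3) in Kelly at 1 day, 256 ± 7.22 FPKM (SD, n = 3) at 6 days, 568 ± 101 FPKM (SD, n = 3) in NGP and 136 ± 7.46 FPKM (SD, n = 2) in the xenograft. In Kelly at 6 days it was followed by VIM, the intermediate filament of mesenchymal cells, at 11.2 ± 0.829 FPKM, then FOSL2 at 5.28 ± 0.152, FN1 at 1.79 ± 0.0951 and CD44 at 0.745 ± 0.170 FPKM (SD, n = 3 each). In NGP the order after TWIST1 was VIM at 6.89 ± 1.82, SNAI2 at 6.36 ± 2.50, FOSL2 at 2.92 ± 0.261 and FN1 at 1.66 ± 0.238 FPKM (SD, n = 3 each), where VIM and SNAI2 did not differ beyond their spread. RUNX1, the Runt-domain factor of mesenchymal cells, and WWTR1 were too low to test for a change in input in any experiment. RUNX1 had at most 2 counts in any Kelly input, 0 in all 4 xenograft inputs, and 0, 31 and 1 counts in the NGP DMSO inputs, so its NGP level rests on 1 library. WWTR1 had 0 counts in all 6 NGP inputs, at most 7 in any Kelly culture input and at most 12 in a xenograft input. YAP1 also had 0 counts in all 6 NGP inputs, against 16, 5 and 7 counts in the Kelly DMSO inputs at 6 days, at least 2.06-fold higher in Kelly when each NGP library is set to a floor of 3 counts. Without Kelly DMSO replicate 1 that bound drops to 1.30-fold.

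**Figure D1:**
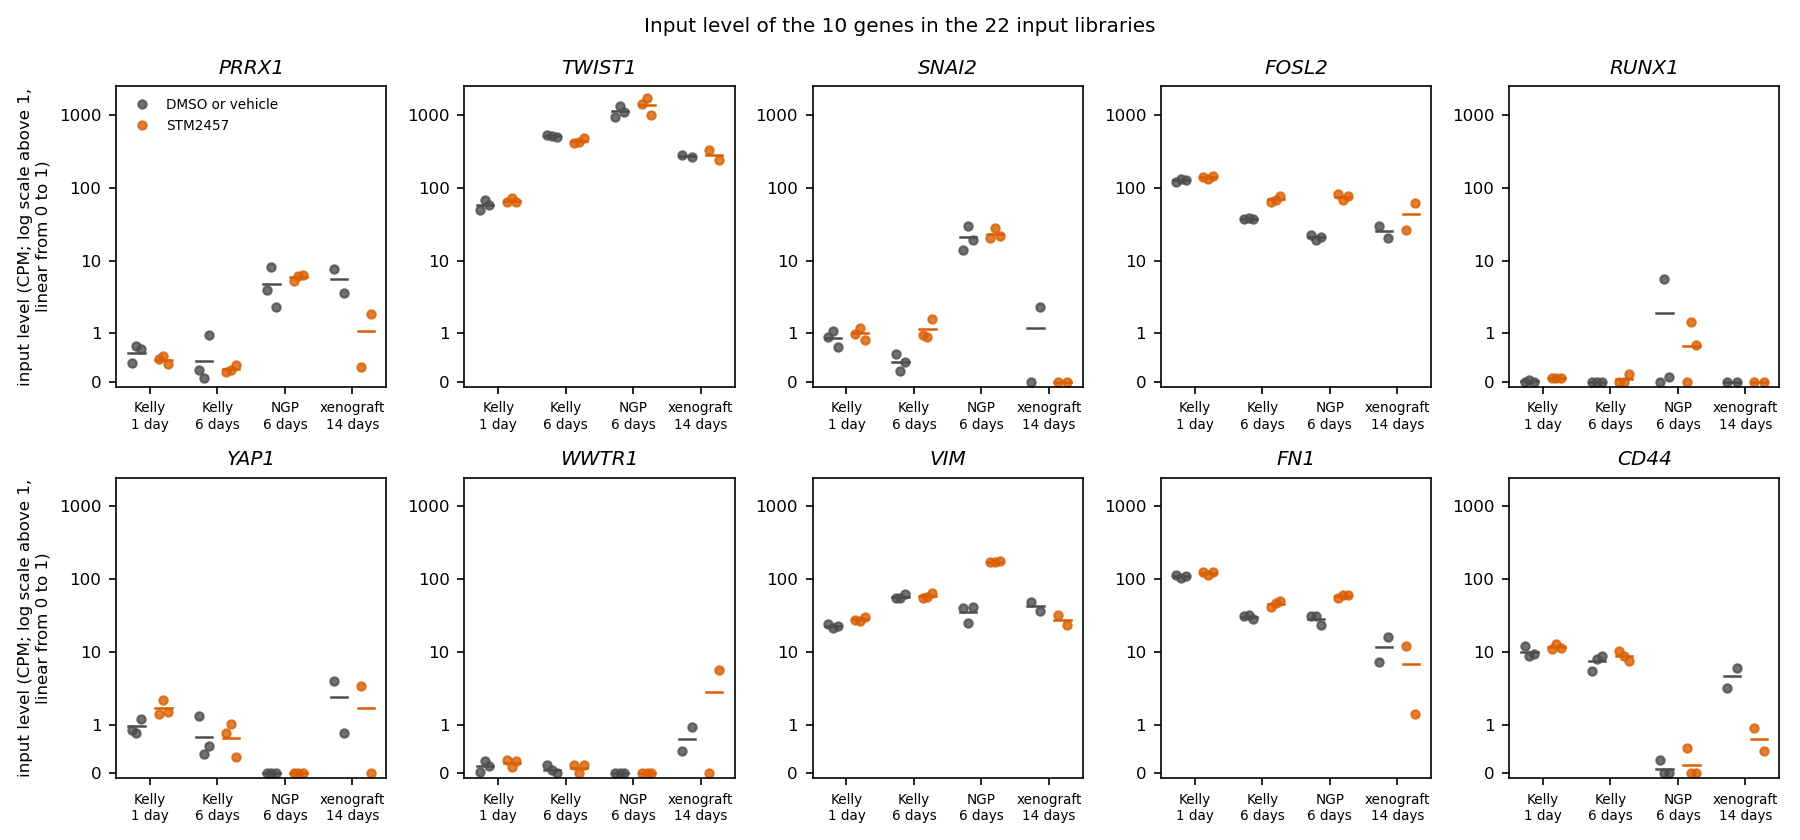
Input level in CPM (log scale above 1, linear from 0 to 1) of each of the 10 genes in the 22 input libraries, by experiment; points are libraries, short bars group means, grey DMSO or vehicle, orange STM2457. VIM in NGP shows the widest gap between treatments among cultures, from 35.7 CPM in DMSO to 175 CPM in STM2457, while RUNX1, WWTR1 and YAP1 lie at or near 0 in most libraries.

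Between the cell lines, SNAI2 and CD44 took opposite places. SNAI2 (SLUG), a zinc-finger repressor of epithelial genes, had 13.8, 29.9 and 18.9 CPM in NGP DMSO inputs and 0.579, 0.235 and 0.405 CPM in Kelly at 6 days. It was higher in NGP by 5.45 on the log2 scale (SE 0.449, adjusted p = 3.05e-06, edgeR quasi-likelihood test). CD44, the hyaluronan receptor, had 5.54, 7.98 and 8.83 CPM in Kelly and counts of 3, 0 and 0 in NGP, a log2 difference of -6.13 (SE 0.687, adjusted p = 2.78e-05). PRRX1, a homeobox factor that can by itself drive the mesenchymal state, had 3.89, 8.24 and 2.29 CPM in NGP and was higher there than in Kelly by 3.22 (SE 0.806, adjusted p = 0.00552). TWIST1 was higher in NGP by 0.96, and FOSL2 and VIM were lower there, by -1.05 and -0.88 on the log2 scale. In all, 6 of 7 members tested differed between the lines, 3 in each direction, where 60.8% of all genes tested did, so the share says little about the members. FN1 missed the test at -0.31 (adjusted p = 0.0895). The lines were processed as separate experiments, and line and experiment cannot be told apart.

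Kelly cells of the 6-day experiment also differed from those of the 1-day experiment without any inhibitor. TWIST1 was higher at 6 days by 3.49 on the log2 scale, with DMSO inputs of 49.3, 68.8 and 57.9 CPM at 1 day and 525, 515 and 496 CPM at 6 days, and VIM was higher by 1.72. FN1, the fibronectin of the extracellular matrix, and FOSL2, an AP-1 subunit of the FOS family, were lower at 6 days, by -1.47 and -1.38. These 4 of 8 members tested passed the edgeR test, as did 79.1% of all genes, in a comparison added after seeing the data. Whether time in culture or the separate experiment moved them was not tested. In the xenograft, against Kelly culture at 6 days, 4 of 7 members tested differed (40.8% of all genes): PRRX1 was higher by 3.71 (SE 0.889), and FN1, TWIST1 and FOSL2 were lower, by -1.29, -0.85 and -0.54. PRRX1 lost its call without Kelly 6-day DMSO replicate 1 (adjusted p = 0.0571), and FOSL2 lost its call with DESeq2 (adjusted p = 0.0531), with another scaling and without any of 4 of the 5 libraries. Without Kelly 6-day DMSO replicate 1, 2 members were called, beside 3398 of 12717 genes. Human-annotated markers of stroma, vessels and blood summed to between 114 and 154 CPM in the xenograft DMSO inputs and between 151 and 158 CPM in Kelly culture DMSO inputs, and 9 of the 20 were at 0 in the xenograft DMSO group, among them DCN, PECAM1 and PTPRC. COL1A1 had 54.1 CPM in the xenograft and 32.8 CPM in culture, and COL3A1 3.22 and 1.09 CPM. The sources used here do not say how reads from mouse RNA were handled, and their part in these values was not tested.

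The clearest change with STM2457 was a rise of VIM, FOSL2 and FN1 in NGP. VIM had 39.9, 24.9 and 42.2 CPM in the DMSO inputs and 174, 175 and 178 CPM in the STM2457 inputs. The groups were far apart, and VIM rose by 2.22 on the log2 scale (SE 0.182, 4.66-fold, adjusted p = 5.36e-08, edgeR quasi-likelihood test). FOSL2 had 22.7, 19.0 and 21.0 CPM in DMSO and 81.5, 68.0 and 76.4 CPM in STM2457, a rise of 1.78 (SE 0.192, 3.43-fold, adjusted p = 2.14e-06). FN1 had 30.9, 31.0 and 23.9 CPM in DMSO and 55.4, 60.1 and 61.0 CPM in STM2457. It rose by 0.97 (SE 0.196, 1.96-fold, adjusted p = 0.00437), although without DMSO replicate 3 the adjusted p was 0.0543. These 3 of 6 members tested compare with 4.23% of all genes tested, and the median over the 6 was 0.61 against 0.01 over all genes. TWIST1 and SNAI2, both well expressed in NGP, did not pass: TWIST1 had 946, 1346 and 1109 CPM in DMSO and 1430, 1719 and 1012 CPM in STM2457, which overlap (log2 0.22, SE 0.184, adjusted p = 0.597), and SNAI2 changed by 0.096 (SE 0.285, adjusted p = 0.908). PRRX1 had 5.26, 6.19 and 6.41 CPM in STM2457, within the DMSO range, and CD44, RUNX1, YAP1 and WWTR1 were too low to test. Beside these, stroma, vessel and blood markers summed to between 152 and 195 CPM in NGP DMSO inputs and between 187 and 230 CPM in STM2457 inputs. Of the 20, 7 were tested and 1 passed, COL3A1, which rose by 1.34, and PECAM1 and PTPRC were at 0 in both groups.

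In Kelly at 6 days FOSL2 and FN1 rose too, by less, and TWIST1 fell. FOSL2 had 37.2, 39.0 and 37.1 CPM in DMSO and 63.3, 68.4 and 77.7 CPM in STM2457, a rise of 0.76 (SE 0.0846, 1.69-fold, adjusted p = 6.71e-06). FN1 had 31.5, 31.9 and 28.9 CPM in DMSO and 41.2, 47.4 and 50.6 CPM in STM2457, a rise of 0.47 (SE 0.0945, adjusted p = 0.00150). TWIST1 had 525, 515 and 496 CPM in DMSO and 406, 420 and 485 CPM in STM2457, and fell by 0.34 on the log2 scale (SE 0.0678, adjusted p = 0.00136). All 3 sets of libraries were separate, though the nearest TWIST1 libraries differed by little. The share of all genes with separate libraries was not counted. VIM, in contrast to NGP, had 56.1, 55.0 and 62.9 CPM in DMSO and 55.5, 57.7 and 64.5 CPM in STM2457, a log2 change of -0.092 (SE 0.0832, adjusted p = 0.457). CD44 changed by 0.19 (SE 0.197, adjusted p = 0.529). SNAI2 had 7, 3 and 5 counts in DMSO and 28, 29 and 9 counts in STM2457, with depths from 5.77 to 31.5 M reads, and did not pass (log2 1.26, SE 0.522, adjusted p = 0.0878). The 3 of 7 members called stand beside 26.6% of all genes. In 1 fit over all 22 inputs FOSL2 kept its call, and TWIST1 and FN1 lost theirs at similar folds (log2 -0.32, adjusted p = 0.323, and 0.50, adjusted p = 0.247), while calls over all genes went from 3396 to 791. Beside these, stroma, vessel and blood markers summed to between 151 and 158 CPM in the DMSO inputs and between 113 and 137 CPM in the STM2457 inputs, with 2 of 6 tested called lower. COL1A1, a collagen gene of this list, fell by 1.00 on the log2 scale (32.8 to 17.5 CPM, adjusted p = 4.17e-06), and PECAM1 was at 0 in both groups. These inputs are of a cultured tumour cell line, and which cells gave the reads of these markers was not tested.

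At 1 day in Kelly 1 member was called. VIM had 24.3, 21.4 and 22.5 CPM in DMSO and 27.4, 26.6 and 30.5 CPM in STM2457, a rise of 0.28 (SE 0.0936, adjusted p = 0.0433). That 1 call of 8 members tested, against 17.5% of all genes, was lost in 5 of the 6 analyses that left out a library (all but DMSO replicate 1), with a replicate block (adjusted p = 0.0817) and in the fit over all 22 inputs, where calls over all genes went from 2315 to 26. FOSL2 changed by 0.12, FN1 by 0.13, TWIST1 by 0.15 and CD44 by 0.20, with adjusted p from 0.133 to 0.358. Without DMSO replicate 2 TWIST1 passed at 0.29 (adjusted p = 0.0256). YAP1 had 23, 20 and 32 counts in DMSO and 36, 53 and 36 counts in STM2457, which do not overlap, though the share of all genes without overlap was not counted. Its log2 change of 0.77 (SE 0.340, adjusted p = 0.134) was the largest of the 8 in size and did not pass. PRRX1 changed by -0.41 (SE 0.482) and SNAI2 by 0.14 (SE 0.375), both at low counts. In the xenograft 0 of 7 members tested, and 0% of all 11329 genes, passed the edgeR test, while before adjustment 968 genes and 0 members had p under 0.05, and 77 genes were called with DESeq2. The count of 0 rests on single libraries: without STM2457 replicate 1 edgeR called 1933 genes, without STM2457 replicate 2 it called 654, and the fit over all 22 inputs called 2551. FOSL2 had 30.2 and 20.4 CPM with vehicle and 26.0 and 61.1 CPM with STM2457, which overlap (log2 0.91, SE 0.511, adjusted p = 0.666). It passed without STM2457 replicate 1 (log2 1.41, adjusted p = 0.00416) and in the fit over all 22 inputs (log2 0.87, adjusted p = 0.0184). VIM had 48.6 and 36.6 CPM with vehicle and 32.3 and 23.8 CPM with STM2457, and did not pass (log2 -0.47, SE 0.410, adjusted p = 0.814). These groups of 2 libraries did not overlap, but the share of all genes without overlap was not counted. A difference from the response of VIM in NGP was not tested. TWIST1 changed by 0.18 (SE 0.188) and FN1 by -0.63 (SE 1.07). FN1 passed at -2.91 without STM2457 replicate 1 (adjusted p = 0.0427), which leaves a group of 1 library with 3 counts of FN1. CD44 had 14 and 44 counts with vehicle and 3 and 1 with STM2457, in libraries of between 2.14 and 7.27 M reads.

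**Figure D2:**
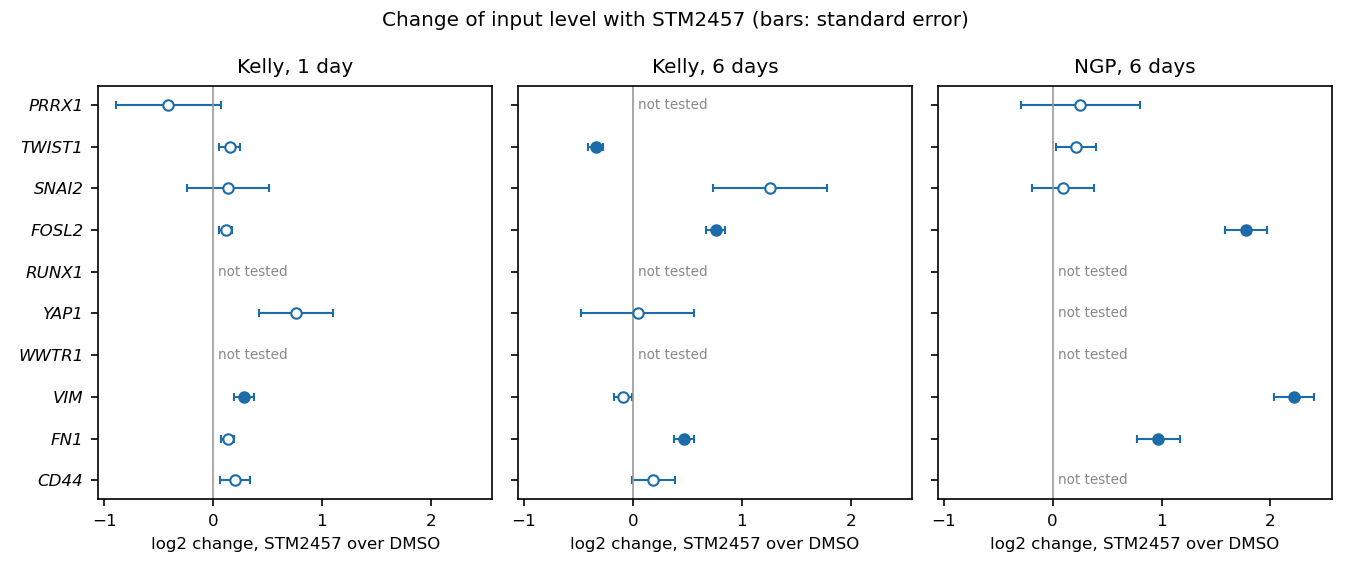
Log2 change of input level with STM2457 over DMSO in the 3 culture experiments, for each member tested; points are edgeR estimates, bars their standard errors, and filled points passed an adjusted p of 0.05. FOSL2 and FN1 are filled on the right in both 6-day experiments, VIM reaches 2.22 in NGP and -0.092 in Kelly at 6 days, and TWIST1 is filled at -0.34 in Kelly at 6 days.

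Differences between responses were tested directly, as interaction terms. The response to STM2457 was larger in NGP than in Kelly at 6 days for VIM, by 2.28 (SE 0.201, adjusted p = 4.83e-06), and for FOSL2, by 0.98 (SE 0.176, adjusted p = 0.00568). These were 2 of 7 members tested, where 1.36% of all genes differed. FN1 and TWIST1 missed this test with adjusted p of 0.297 and 0.327. Between 6 days and 1 day in Kelly, 3 of 8 members tested differed (8.41% of all genes): FOSL2 by 0.66 (SE 0.101, adjusted p = 0.000134), FN1 by 0.35 (SE 0.108, adjusted p = 0.0463) and TWIST1 by -0.48 (SE 0.117, adjusted p = 0.0110). VIM missed it at an adjusted p of 0.0774. The FN1 difference was lost without any 1 of 7 of the 12 libraries, the TWIST1 difference without Kelly 6-day DMSO replicate 1 (adjusted p = 0.0510) or STM2457 replicate 2 (adjusted p = 0.0523), and all 3 in the fit over all 22 inputs.

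In the m6A pull-down of DMSO cells TWIST1 and FOSL2 were enriched in both Kelly culture experiments, and VIM and FN1 were depleted in all 3 culture experiments on the scale set by the typical gene (at Kelly 6 days both signs flip on a mitochondrial reference). A gene was called enriched at an adjusted p under 0.05 and at least a 2-fold RIP over input ratio, and depleted at the inverse. In Kelly DMSO at 1 day TWIST1 had 628, 622 and 609 CPM in RIP against 49.3, 68.8 and 57.9 CPM in input, a log2 ratio of 3.46 (SE 0.104, 11.02-fold, adjusted p = 1.01e-11) that stood above 98.7% of genes tested. FOSL2 had 395, 363 and 371 CPM in RIP against 119, 134 and 126 CPM in input, a log2 ratio of 1.63 (SE 0.0693, adjusted p = 2.15e-10). VIM had 4.45, 3.13 and 4.95 CPM in RIP and FN1 12.9, 6.26 and 14.6 CPM, both far below their inputs, with log2 ratios of -2.39 (SE 0.465) and -3.23 (SE 0.395). These are ratios relative to the typical gene. With the 13 mitochondrial mRNAs, which METTL3 does not methylate, as the reference, the median of all genes moved to 1.57, and VIM and FN1, at -0.75 and -1.59, stayed below 0, VIM without a call. Of 8 members tested 2 were enriched (26.3% of all genes) and 2 depleted (29.1%), shares near those of all genes. CD44 had 5.64, 4.07 and 6.11 CPM in RIP (log2 -0.88, SE 0.459, adjusted p = 0.109), and -0.79 (SE 0.846) at 6 days, and both signs flip on the mitochondrial reference, to 0.77 and 3.82. SNAI2, PRRX1 and YAP1, at low counts, had adjusted p from 0.209 to 0.610 at 1 day.

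At 6 days in Kelly DMSO the same genes were called in the same directions. FOSL2 had 246, 180 and 252 CPM in RIP against 37.2, 39.0 and 37.1 CPM in input (log2 2.54, SE 0.233, adjusted p = 1.70e-06), and TWIST1 1569, 1592 and 1650 CPM against 525, 515 and 496 CPM (log2 1.60, SE 0.126, adjusted p = 4.96e-07). FN1 had 19, 44 and 15 counts in RIP against 381, 408 and 357 in input (log2 -3.75, SE 0.484) and VIM a log2 ratio of -1.66 (SE 0.440), and on the mitochondrial reference, where the median of all genes is 4.77, both signs flip, to 0.88 for FN1 and 3.41 for VIM. Without DMSO replicate 1 the VIM ratio was -1.44 (adjusted p = 0.0654). Again 2 of 7 members tested were enriched (25.8% of all genes) and 2 depleted (27.3%). In NGP DMSO the picture differed: SNAI2, with 58.8, 59.8 and 47.4 CPM in RIP against 13.8, 29.9 and 18.9 CPM in input, was the 1 enriched member of 7 tested (log2 1.32, SE 0.255, adjusted p = 0.000134), beside 20.9% of all genes. TWIST1 and FOSL2 had log2 ratios of 0.40 (SE 0.212, adjusted p = 0.112) and 0.36 (SE 0.211, adjusted p = 0.152), and both passed on the mitochondrial reference, at 1.21 and 1.15. PRRX1 was at 0.82 (SE 0.423, adjusted p = 0.105) and was called without DMSO replicate 2 (1.60) and on that reference (1.65). RUNX1 was at -1.51 (SE 1.27, adjusted p = 0.322) and turned to 3.88 without DMSO replicate 2, which held 31 of its input counts. VIM, with 8.77, 8.03 and 8.27 CPM in RIP, was depleted at -2.19 (SE 0.209, adjusted p = 1.16e-08), and FN1 at -1.04 (SE 0.242, adjusted p = 0.000856), as were 19.0% of all genes. FN1 fell short of 2-fold without DMSO replicate 1 (-0.79) or replicate 2 (-0.94), and on the mitochondrial reference FN1 was at -0.40 and VIM at -1.502. In the xenograft 0 of 8 members tested were called enriched or depleted by edgeR, against 1.61% and 2.15% of all genes, and 1 member, TWIST1, had an unadjusted p under 0.05. TWIST1 had 846 and 679 CPM in RIP against 283 and 262 CPM in input (log2 1.501, SE 0.410, adjusted p = 0.0756), and DESeq2 called it (adjusted p = 0.0322). FOSL2 stood at 2.11 (SE 0.988) and VIM at -3.11 (SE 1.83), with only 2 counts of VIM in 1 of the RIP libraries.

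**Figure D3:**
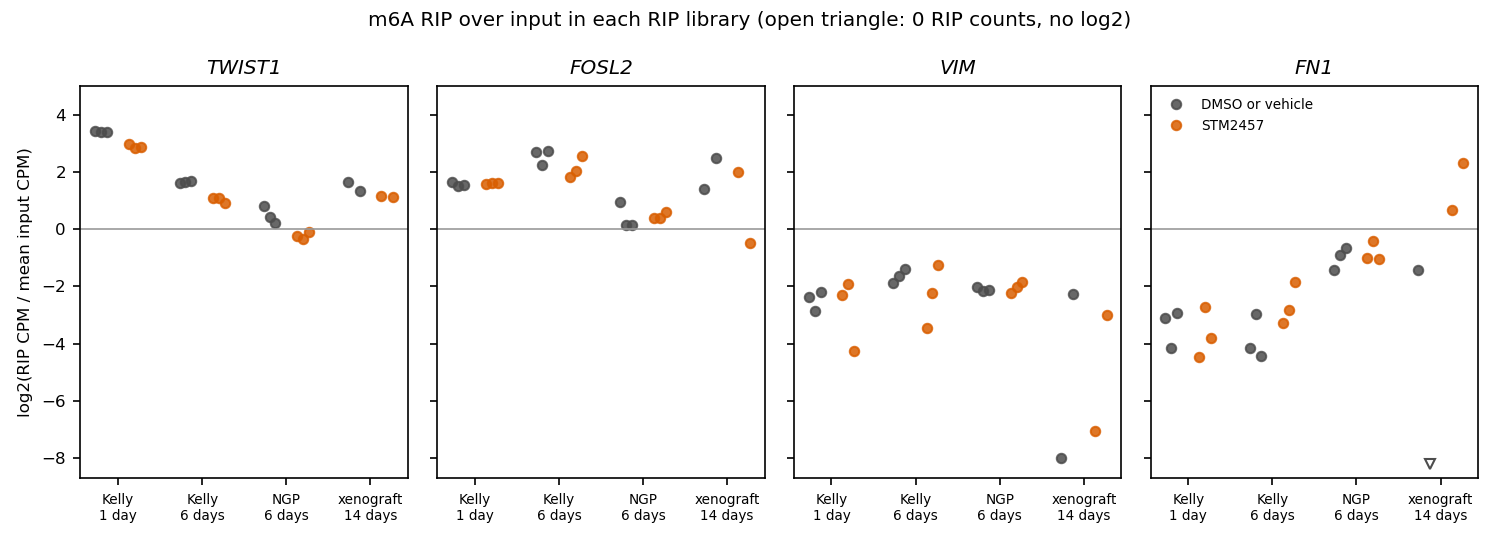
Log2 of RIP CPM over the mean input CPM of the same group, 1 point per RIP library, for TWIST1, FOSL2, VIM and FN1 by experiment; grey is DMSO or vehicle, orange STM2457, and an open triangle marks a library with 0 RIP counts. On this CPM scale all culture libraries of VIM and FN1 lie below 0 (at Kelly 6 days both signs turn in the fit on the mitochondrial reference), and those of TWIST1 are lower with STM2457 than with DMSO in each experiment.

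The pull-down ratios themselves differed between experiments. Against Kelly at 6 days, NGP had lower ratios for FOSL2, by -2.36 (SE 0.304, adjusted p = 3.08e-05), and for TWIST1, by -1.37 (SE 0.256, adjusted p = 0.000510), and both stayed lower on the mitochondrial reference. The ratio of FN1 was higher in NGP by 2.53 (SE 0.489, adjusted p = 0.000672), but turned to -1.26 on that reference. PRRX1 was higher by 4.16 (SE 1.502, adjusted p = 0.0342), which rests on 1, 0 and 0 RIP counts in Kelly against 188, 108 and 190 in NGP. The PRRX1 call was lost on the mitochondrial reference and without Kelly 6-day DMSO replicate 3 (log2 2.43, adjusted p = 0.252), NGP DMSO replicate 1 or NGP DMSO replicate 3. These are 4 of 7 members tested, where 46.1% of all genes differed. Between 6 days and 1 day in Kelly, a comparison added after seeing the data, 3 of 8 members tested differed (24.4% of all genes). FOSL2 had a higher ratio at 6 days by 1.12 (SE 0.182) and VIM by 0.94 (SE 0.295, adjusted p = 0.0339, lost without any 1 of 5 of the 6 pairs of libraries left out and with another scaling), and TWIST1 a lower one (log2 difference -1.65, SE 0.144), which turned to 1.502 on the mitochondrial reference.

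With STM2457, set against the typical gene, 1 member was called for a change of the pull-down ratio in any experiment, SNAI2 in Kelly at 6 days, at low counts. CD44 had RIP levels of 0.560, 0.404 and 0.606 times the input mean in Kelly DMSO at 1 day and 0.0736, 0.281 and 0.185 times in STM2457. The groups did not overlap, and the fitted change of -1.44 (SE 0.649, adjusted p = 0.160) did not pass, except on the mitochondrial reference (-2.91, adjusted p = 0.00210). At 6 days CD44 changed by -1.14 (SE 1.19, adjusted p = 0.719), with 4 RIP counts in 1 STM2457 library. For TWIST1 in Kelly at 1 day the RIP level was 10.7, 10.6 and 10.4 times the input mean in DMSO and 7.94, 7.13 and 7.39 times in STM2457. The groups did not overlap, and the fitted change was -0.40 (SE 0.134, adjusted p = 0.0578), with a call without DMSO replicate 2 (adjusted p = 0.0202). At 6 days the ratios were 3.06, 3.11 and 3.22 in DMSO and 2.15, 2.12 and 1.89 in STM2457, and the fitted change, after scaling, was -0.25 (SE 0.175, adjusted p = 0.541). In NGP they were 1.76, 1.34 and 1.16 in DMSO and 0.847, 0.795 and 0.927 in STM2457 (log2 -0.63, SE 0.299, adjusted p = 0.839), and the xenograft gave 3.11 and 2.49 with vehicle against 2.22 and 2.17 with STM2457. The CPM ratio of TWIST1 was lower with STM2457, without overlap, in all 4 experiments, and edgeR called it in none. Each of these ratios divides by the mean input of its group, so the spread between input libraries is not in them. The share of all genes without overlap on this scale was not counted. FOSL2 changed by 0.12 at 1 day, -0.038 at 6 days and 0.090 in NGP, and VIM by 0.021, -0.042 and 0.16, with adjusted p from 0.449 to 0.992. FN1 changed by -0.081 at 1 day, 1.57 at 6 days (SE 0.617, adjusted p = 0.225) and 0.24 in NGP. On the mitochondrial reference the median gene fell by 1.46 at 1 day and by 2.20 at 6 days, and TWIST1 changed by -1.84 and -2.81, FOSL2 by -1.32 and -2.58.

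By call, 0 of 8 members changed in pull-down at 1 day in Kelly, where 17.2% of all genes did (2345 genes by edgeR, 2966 by DESeq2) and 2 members, TWIST1 and CD44, had an unadjusted p under 0.05. At 6 days 1 of 7 was called, SNAI2, against 2.06% of all genes (275 genes). Over all genes that count was 0, 0 and 6 without DMSO replicate 1, 2 or 3, 810 without STM2457 replicate 1, 158 and 128 without replicates 2 and 3, and 0 with a replicate block. SNAI2 had 7, 16 and 4 RIP counts in DMSO and 0, 0 and 0 in STM2457. That is at least 5.49-fold lower in RIP CPM when each STM2457 library is set to a floor of 3 counts, or at least 3.44-fold without DMSO replicate 2. RIP CPM alone was not tested. The call is for the change of the RIP over input ratio (edgeR interaction term, adjusted p = 0.0360), with input means of 0.406 CPM in DMSO and 1.15 CPM in STM2457. That call was lost with no filter on low counts, with a replicate block and without any 1 of 5 of the 6 pairs of libraries. SNAI2 in NGP, where it is well counted, had ratios of 2.82, 2.87 and 2.27 in DMSO and 2.01, 2.76 and 2.99 in STM2457, which overlap (log2 0.055, SE 0.355, adjusted p = 0.989). In NGP 0 of 7 members and 0% of 13088 genes were called by edgeR, with 764 genes and 1 member, TWIST1, at an unadjusted p under 0.05 and 2 genes called by DESeq2. In the xenograft it was 0 of 8 and 0% of 12626 genes, with 809 genes and 0 members at an unadjusted p under 0.05 and 148 genes called by DESeq2. Low RIP counts were uneven between replicates, as for PRRX1 with 0, 0 and 44 counts in Kelly STM2457 RIP at 1 day, and WWTR1 with 104 and 0 counts in the xenograft STM2457 RIP libraries.

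Related genes, in lists without the members, are read against the share of all genes called in input, 17.5% at 1 day and 26.6% at 6 days in Kelly and 4.23% in NGP. Of 23 further mesenchymal transcription factors, 3 of 16 tested rose and 0 fell in Kelly at 1 day, 1 rose and 2 fell of 15 at 6 days, and 0 rose and 1 fell of 15 in NGP. PRRX2, a close relative of PRRX1, rose by 0.52 at 1 day, ZEB2 rose by 0.45 and SOX9 fell by 0.85 at 6 days, and SIX4 fell by 1.32 in NGP. With 1 library left out, the calls of ZEB2 and SIX4 were each lost in 4 of 6 fits and that of SOX9 in 2 of 6. Among 10 AP-1 and RUNX partners, 2 of 9 tested rose at 1 day, 1 rose and 2 fell at 6 days, and 0 passed in NGP. JUND, a partner of FOSL2 in AP-1, rose by 0.67 at 1 day (37.5 ± 5.71 to 60.7 ± 5.32 CPM, SD, n = 3), and ATF3 fell by 1.54 at 6 days (40.6 ± 1.95 to 15.1 ± 0.563 CPM, SD, n = 3). The 15 Hippo pathway genes, all tested, gave 2 rises at 1 day, 3 rises and 1 fall at 6 days and 1 rise in NGP. TEAD1, a DNA-binding partner of YAP and TAZ, rose by 0.83 in Kelly at 6 days and by 0.75 in NGP, from 46.9 ± 8.43 to 82.9 ± 12.95 CPM (SD, n = 3). SAV1 rose by 0.46 at 1 day, and TEAD3 fell by 0.32 in Kelly at 6 days. With 1 library left out, the calls of TEAD1 in NGP and of TEAD3 were each lost in 3 of 6 fits.

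Of 22 YAP and TAZ targets, 2 of 17 tested rose at 1 day, 3 rose and 1 fell of 15 at 6 days, and 1 rose and 1 fell of 11 in NGP. IGFBP3, a secreted binder of insulin-like growth factors, rose by 2.92 in NGP, from 21.2 ± 3.11 to 169 ± 17.2 CPM (SD, n = 3, adjusted p = 3.79e-10), and by 1.41 in Kelly at 6 days. In the same list AMOTL2 fell by 0.98 in NGP and CCDC80 rose by 0.67 at 1 day. Of 20 further cytoskeleton, matrix and adhesion genes, 2 rose and 2 fell of 18 tested at 1 day, 4 rose and 5 fell of 15 at 6 days, and 2 rose and 1 fell of 15 in NGP. ANXA2 fell by 0.48 at 1 day and by 1.30 at 6 days, NES, the intermediate filament nestin, rose by 0.37 at 1 day, and the integrin ITGB5 rose by 0.80 in NGP. The ITGB5 call was lost in all 6 fits that left out 1 library. The adrenergic markers moved as well: of 16, 5 rose and 3 fell at 1 day, 6 rose and 4 fell at 6 days, and 2 rose and 0 fell in NGP. TH, the first enzyme of catecholamine synthesis, fell by 1.01 in Kelly at 6 days, and TFAP2B rose by 0.86 in NGP. In the xenograft 0 genes of any list passed in either direction.

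Over the 22 inputs the members did not follow each other as 1 group. Pearson's r of log2(CPM + 1) was 0.71 between TWIST1 and VIM, 0.67 between FOSL2 and FN1, -0.65 between TWIST1 and FOSL2, and -0.75 between TWIST1 and CD44, as descriptions, since libraries of 1 experiment share cells, depth and preparation. Among 9340 genes, the most alike to each member were SAP30, HMGN2 and CDC34 for TWIST1 (r from 0.985 to 0.986), COTL1, FOXD1 and KDM2B for SNAI2, RXRA, SLIT3 and DEDD for FOSL2 (highest 0.954), GRK2, TMEM51 and CCDC33 for VIM (highest 0.893), MAP3K1, ARNT2 and POM121C for FN1, and PSMD5, MKRN1 and ULK2 for CD44.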

How the data were processed

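Counts of reads per gene were deposited for each of the 44 libraries. Per the file headers they were made with featureCounts 1.5.3 on GENCODE 33 protein-coding genes with no strand option. Per the submitters' processing notes, FastQC 0.11.5, Trimmomatic 0.36, HISAT2 2.1.0 and deepTools 2.0 were used, on GRCh38. No member shares exon bases with another listed gene. Columns of per-sample values that could not be mapped numbered 0. The m6A and unmodified spike-in RNAs named in the labels were not analysed here.

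The deposited counts were tested with edgeR 4.0.16 (R 4.3.3; quasi-likelihood F test, TMM factors, filterByExpr with a minimum count of 10, Benjamini-Hochberg adjustment over all genes tested, threshold 0.05). Each input comparison used the inputs of its own experiment. RIP over input and its change (the interaction of treatment and library type) came from 1 fit per experiment. Standard errors are the log2 value divided by the root of F. CPM use the summed counts as total, and FPKM the exon length in the files. Likeness used log2(CPM + 1). Alternatives were other scaling (RLE, DESeq2 1.42.0), no filter on low counts, the mitochondrial reference, a replicate block, 1 fit over all 22 inputs and leaving out each replicate. A design with 3 libraries a group, or 2, limits all tests. Scripts were tested on simulated data. All 40 replicate pairs differed by more than sampling noise (chi-square over its degrees of freedom at least 2.73).

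All 10 members are described, those at low counts by counts or ranges. From each list the text names some, not all, of the called genes with the largest rise or fall per input comparison. These had a mean of at least 2 log2 CPM and no overlap between groups. For members reaching 10 CPM it names the 3 genes most correlated with them. A result of the adrenergic list is not reported here. The members and lists were chosen with earlier results of these data known.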

Additional observations from a re-analysis of the deposited data

Results flagged for a closer look

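In 12 cases a response or ratio of a member differed between experiments by a test of the difference itself (edgeR interaction terms, log2 scale, adjusted over all genes tested). The response of input to STM2457 was larger in NGP than in Kelly at 6 days for VIM, by 2.28, and for FOSL2, by 0.98. Within Kelly, the response at 6 days exceeded that at 1 day by 0.66 for FOSL2 and by 0.35 for FN1, and differed by -0.48 for TWIST1.

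The RIP over input ratio in DMSO was higher in NGP than in Kelly at 6 days for PRRX1, by 4.16, and for FN1, by 2.53, and lower by -2.36 for FOSL2 and by -1.37 for TWIST1. The FN1 value turned to -1.26 on the mitochondrial reference. In Kelly the ratio at 6 days differed from that at 1 day by 1.12 for FOSL2, 0.94 for VIM and -1.65 for TWIST1, and the last turned to 1.502 on the mitochondrial reference. Cell line, day and experiment cannot be told apart in these comparisons.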

How the results depend on the processing

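Counts of called members under the alternatives that were not leave-one-out stayed within 1.5 times the reported count in 76 of 88 cases, and single values kept their direction in 525 of 544. With a replicate block, 0 members were called for input at 1 day in Kelly and 0 for the pull-down change at 6 days, and the pull-down changes of VIM at 1 day and of SNAI2 in NGP turned to -0.20 and -0.010, and RIP over input of RUNX1 in NGP to 0.77. No other reversal came from the block. In no set of 3 pairs with shared replicate numbers were all correlations over 0.1 (highest 0.24). They were not set against pairs with unlike numbers, so whether the numbers pair the libraries was not settled. With the block, calls over all genes for input went from 520 to 870 in NGP and from 2315 to 1618 at 1 day in Kelly. A single fit over all 22 inputs called 0 members at 1 day and 1 at 6 days in Kelly, 2 in the xenograft and 0 for the difference between 6 days and 1 day. Over all 14224 genes tested it called 26, 791, 2551 and 41. DESeq2 called 1 member enriched in the xenograft (688 of 12626 genes). No filter on low counts left 0 members for the pull-down change at 6 days in Kelly (239 of 16734 genes).

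The mitochondrial reference moved the median of all genes by more than 0.1 everywhere it was run. It gave 4 called members for the pull-down change at 1 day in Kelly (8336 of 13669 genes called) and 3 at 6 days (3938 of 13324). It gave 5 in NGP for RIP over input (5880 of 13088). It also gave 5 for the difference of that ratio between 6 days and 1 day in Kelly. That last count is given without the share of all genes, so it says little about the members. It reversed pull-down changes to -1.32 (FOSL2) and -1.44 (VIM) at 1 day, to -0.52 (FN1) at 6 days, and in NGP to -0.33 (SNAI2), -0.30 (FOSL2), -0.14 (VIM) and -0.025 (FN1). It reversed RIP over input in Kelly at 6 days to 3.41 (VIM), 0.88 (FN1) and 3.82 (CD44), that of CD44 at 1 day to 0.77, the difference between lines to -1.26 (FN1) and that between 6 days and 1 day to 1.502 (TWIST1). The pull-down change of FN1 at 1 day, near 0, was 0.0056 with RLE, 0.00047 with DESeq2 and 0.063 with no filter. The cause of these shifts was not tested.

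Leaving out each replicate in turn gave from 0 to 1 called members for input at 1 day in Kelly (from 1249 to 2426 of all genes). It also gave from 0 to 1 for the pull-down change in Kelly at 1 day (from 1432 to 2499 genes) and at 6 days (from 0 to 810 genes). It gave from 1 to 3 for the response difference between 6 days and 1 day, where calls over all genes went from 814 to 1533. For xenograft against culture it gave 2 without Kelly 6-day DMSO replicate 1, where 3398 of 12717 genes were called. Values that changed sign ranged, for the pull-down change at 1 day, from -0.49 to 0.53 (VIM) and from -0.77 to 0.27 (FN1), at 6 days from -0.27 to 0.082 (FOSL2) and from -0.70 to 0.33 (VIM), and in NGP from -0.26 to 0.31 (SNAI2), from -0.035 to 0.31 (FOSL2) and from -0.016 to 0.55 (FN1). RIP over input of RUNX1 in NGP ranged from -2.41 to 3.88. For input they ranged from -0.022 to 0.28 (SNAI2 at 1 day in Kelly), from -0.16 to 0.46 (SNAI2 in NGP), from -0.064 to 0.37 (TWIST1 in the xenograft) and from -2.91 to 0.17 (FN1 in the xenograft). Where this leaves 1 xenograft library, that library is assumed to vary like the other group. Low counts limit RUNX1, WWTR1, YAP1 and PRRX1 throughout, SNAI2 in Kelly and the xenograft, and CD44 in NGP and the xenograft. PRRX1 was too low to test for an input change in Kelly at 6 days, and SNAI2 in the xenograft.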

Other observations

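The m6A pull-down of DMSO cells was also counted for the lists without the members, on the scale set by the typical gene, where 26.3%, 25.8% and 20.9% of all genes were enriched and 29.1%, 27.3% and 19.0% depleted in Kelly at 1 day, at 6 days and in NGP. Of the further mesenchymal transcription factors tested, 9 of 17 were enriched and 0 depleted in Kelly at 1 day, 5 of 15 and 0 at 6 days, and 5 and 2 of 15 in NGP. Their median log2 ratios were 1.21, 1.10 and 0.61, against -0.07, -0.10 and 0.08 over all genes. Of the cytoskeleton, matrix and adhesion genes, 1 of 18 was enriched and 8 were depleted at 1 day, 1 and 7 of 15 at 6 days, and 0 and 3 of 16 in NGP, with medians of -1.09, -1.17 and -0.19. YAP and TAZ targets gave 6, 5 and 3 enriched genes of 17, 15 and 14 tested and 0 depleted in each, and AP-1 and RUNX partners 5 of 10, 6 of 10 and 3 of 9 enriched, with 1, 0 and 2 depleted. Of the Hippo pathway genes, 7 and 8 of 15 were depleted in Kelly at 1 day and 6 days.

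Across genes with a mean of at least 3 on the log2 CPM scale, Spearman's rho between the log2 ratio of RIP to input in DMSO and the length of the longest exon was 0.34 in Kelly at 1 day (7919 genes), 0.37 at 6 days and 0.37 in NGP, while rho with the density of GGACT was 0.088, 0.089 and -0.11. These are across genes, which are not independent replicates. In Kelly at 1 day the median log2 ratio was -1.46 for genes whose longest exon had at most 886 bases, as in VIM and FN1, and 0.72 for genes whose longest exon had at least 3398.5 bases, as in FOSL2. These bounds are the lower and upper quartiles of the genes. TWIST1, with a longest exon of 966 bases, lies near the lower bound and had the highest ratio of the members there. At 6 days FOSL2 (2.54) was above TWIST1 (1.60), and in NGP SNAI2 (1.32) was the highest.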
